A study of Mus musculus with 3 samples.

Results

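The 38 genes described here encode enzymes and core partners that modify histones or move nucleosomes, and they were measured by RNA-seq of polyadenylated RNA in activated mouse regulatory T cells. They comprise 11 zinc-dependent histone deacetylases (Hdac1 to Hdac11), 5 sirtuins, 6 acetyltransferases, 4 subunits of Polycomb repressive complex PRC2, 4 histone methyl writers or erasers, 5 subunits of BAF and PBAF, 2 other remodelling factors and Yy1. The list was chosen by name, with earlier results of these data known. Each symbol was matched through GENCODE M21 to its gene identifier in the larger gene table of all 3 libraries. All 38 matched, out of 55536 genes in that table.

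The samples are 3 libraries, numbered technical replicates 1, 2 and 3, made from 1 biosample of primary cells of a male mouse aged 9 weeks. The strain is named Foxp3GFP-DTRCD4CreERT2R26tdTomato, so that all libraries carry a Foxp3 allele with GFP and DTR, a CD4 CreERT2 allele and an R26 tdTomato allele. The labels give the whole organism as origin, say nothing of how the cells were activated or sorted, and hold no resting or untreated group. Accordingly no condition is compared below. Since all libraries come from the same biosample, each SD and each p-value describes how libraries vary, which may be wholly technical.

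The gene counts summed to 20783676 in replicate 1, to 21206219 in replicate 2 and to 18496690 in replicate 3. All 6 markers of regulatory T cells were above 1 TPM (a level corrected for transcript length and library depth) in every library, among them Foxp3, the lineage-defining transcription factor, at 90.1 ± 6.76 TPM (SD, n = 3). Their summed level was 2961, 2834 and 2717 TPM in replicates 1, 2 and 3. Markers of other cells were low but not all at 0: summed levels were 24.0 to 34.6 TPM for 7 B cell genes, 29.9 to 44.0 TPM for 8 myeloid genes, 18.5 to 24.3 TPM for 2 CD8 genes, 2.04 to 3.13 TPM for 5 NK cell genes and 0.860 to 1.12 TPM for 7 stromal and endothelial genes. The 4 plasma cell genes summed to 67.0, 51.7 and 41.0 TPM in replicates 1, 2 and 3, of which Xbp1, a gene that other secreting and activated cells also express, made 64.8, 46.8 and 38.4 TPM. Myeloid S100a8 and stromal Pdgfra and Pdgfrb were listed at 0 in every library. The 6 erythroid genes were high, at 910 to 1272 TPM in sum. How much any of these cells added to the levels below was not tested, and in bulk RNA fewer cells of a type cannot be told apart from less RNA per cell.

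Acetyl groups on histone tails are written by acetyltransferases and removed by deacetylases and sirtuins, and acetylated chromatin is generally more open to transcription. PRC2 writes the repressive methyl mark on histone H3 through its catalytic subunit Ezh2 or Ezh1, while BAF, PBAF and the Chd and Bptf complexes use ATP to slide or evict nucleosomes. In regulatory T cells several of these enzymes are known for acting with or on Foxp3: Kat5 and Ep300 acetylate it, and Sirt1 deacetylates it. Hdac9 has been studied as a restraint on regulatory T cell function, and Ezh2 helps to hold the identity of activated cells.

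At a threshold of 1 TPM in every library, 37 of the 38 genes were detected, beside 22.7% of all 55536 genes and 47.3% of 22028 protein-coding genes. The exception was Hdac11. As the list was chosen with earlier results known, its detected share is not independent of these data. Over the 38 genes the median level was 24.7 ± 1.18 TPM (SD of the library medians, n = 3). The same median was 26.1 ± 0.831 TPM over the 10425 protein-coding genes detected in every library, so the enzymes lay near the middle of expressed genes. Mean levels ran from 0.927 TPM for Hdac11 to 304.8 TPM for Hdac1, and 3 genes stood at 100 TPM or more: Hdac1, Sirt7 and Smarcb1. Ranked by level, 27 of the 37 pairs of neighbouring genes had overlapping library values, and 10 pairs did not.

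**Figure D1:**
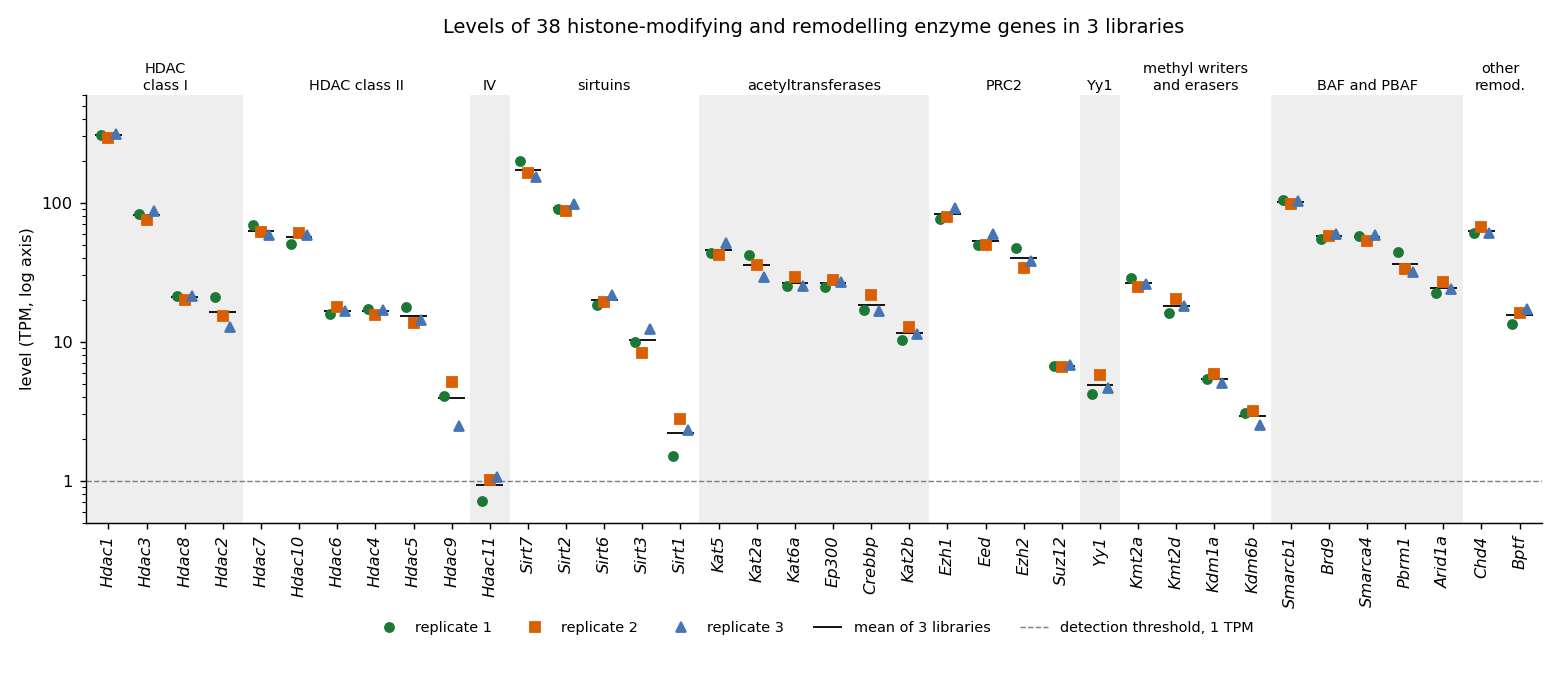
Levels in TPM (log axis) of the 38 genes, grouped by role and ordered by mean within each group. Symbols are the 3 libraries, black lines are means and the dashed line is the detection threshold of 1 TPM. Hdac1 is highest, and Hdac11 is the gene that falls on both sides of the threshold.

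Among the class I deacetylases, enzymes that mostly work in the nucleus inside corepressor complexes, Hdac1 was listed far above the others. Hdac1 (chr4:129516104-129542713, minus strand, mm10) had 306.5, 293.4 and 314.6 TPM in replicates 1, 2 and 3. Hdac3, the catalytic subunit of the NCoR and SMRT corepressors, had 82.8, 74.8 and 87.4 TPM. Hdac8 had 21.5, 19.9 and 21.2 TPM. For Hdac2 (chr10:36974544-37001889, plus strand), the close partner of Hdac1 in the same complexes, the values were 20.9, 15.4 and 12.8 TPM. The 3 values of Hdac1 lay above those of every other gene of the 38, while Hdac8 and Hdac2 overlapped.

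The level of Hdac1 depended on which of the 2 deposited gene tables was read. The larger table gave Hdac1 7587, 7474 and 6849 estimated counts, whereas the second, smaller table of whole-number counts gave it 438, 449 and 398. That is 5.87% of the estimated counts, beside a median of 58.4% over the 38 genes and of 47.3% over 11596 protein-coding genes. For Hdac2 the second table held 353, 282 and 215 counts, or 74.3%. Per base of transcript, Hdac1 ranked first of 38 in the larger table and 17 in the second. The log2 ratio of Hdac1 to Hdac2 was accordingly 4.24 ± 0.37 (SD, n = 3) in TPM and 0.57 ± 0.31 in the second table, with Hdac1 above Hdac2 in all 3 libraries by both.

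Hdac1 shares sequence with processed pseudogenes. Its coding transcript Hdac1-201 holds 1989 stretches of 50 bases, of which 1121 (56.4%) also occur in Gm10093, a pseudogene at chr17:78491582-78493025. Gm10093 aligned to Hdac1-201 over 1444 bases with 1435 identical (99.4%) and no gap. In the larger table Gm10093 had 73.4, 59.4 and 34.1 estimated counts, below 1% of those of Hdac1. A read of 50 bases from an identical stretch could come from either gene, and the rule by which either table assigned such reads is not given in the sources used here. Both stretches printed here bear on this: the first, from the start codon of Hdac1 and across a splice junction (bases 85 to 144 of Hdac1-201), is the same in both genes, and the second is the stretch of 60 bases with the most differences, 5, which stand in capitals.
Hdac1-201 (within chr4:129534716-129542629, minus strand) and Gm10093 (chr17:78491582-78491641, plus strand), identical: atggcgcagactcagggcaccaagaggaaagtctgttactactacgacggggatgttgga
Hdac1-201, chr4:129522975-129523034, minus strand: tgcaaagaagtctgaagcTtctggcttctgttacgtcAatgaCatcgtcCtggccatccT
Gm10093, chr17:78492004-78492063, plus strand: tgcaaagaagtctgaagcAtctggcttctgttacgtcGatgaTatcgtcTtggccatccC
Hdac1 and Hdac2 share no such stretch with each other: their coding sequences were 75.8% identical over 1443 aligned bases, with 0 common stretches of 50 bases.

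The class II deacetylases spanned mean levels from 3.91 to 62.9 TPM. Those of class IIa shuttle between nucleus and cytoplasm and are known as targets of signalling from the T cell receptor. Hdac7, the class IIa enzyme best known from thymocytes, was highest at 69.0, 61.3 and 58.4 TPM, and Hdac10, a polyamine deacetylase, followed at 50.6, 60.3 and 58.9 TPM. Their library values overlapped. Hdac6, the cytoplasmic deacetylase of tubulin, stood at 15.8, 17.7 and 16.6 TPM. Hdac4 was at 17.2, 15.5 and 17.1 TPM and Hdac5 at 17.7, 13.7 and 14.3 TPM, and the values of these 3 genes overlapped too. Hdac9 (chr12:34047580-34917095, minus strand), studied as a restraint on regulatory T cell function, was lowest of the class at 4.10, 5.15 and 2.48 TPM. All 3 of its values lay below those of the other class II genes.

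The log2 ratio of Hdac7 to Hdac9 was 4.03 ± 0.48 in TPM and 4.51 ± 0.60 in the second table. Hdac4 and Hdac5 differed by 0.13 ± 0.15 in TPM, a gap smaller than its SD, and by -1.21 ± 0.15 in the second table, where Hdac4 was lower in every library. The second table held 34.3% as many counts for Hdac4 as the larger one and 87.2% for Hdac5. Of the 50-base stretches of Hdac4, 21.6% also occur in another gene, all of them in Gm26720, a lincRNA at chr1:91989051-91992628 within the span of Hdac4. Exons on the opposite strand overlapped 22.4% of the exonic bases of Hdac4, and without knowing whether the counting used strand their reads cannot be told apart.

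Hdac11, the lone class IV deacetylase, was near the detection threshold with 0.71, 1.01 and 1.06 TPM and 21, 18 and 23 counts. Whether it differed between libraries could not be seen at this depth (chi-square test, adjusted p = 0.573).

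The sirtuins, deacetylases that need NAD, were led by Sirt7 (chr11:120618372-120625240, minus strand), a nucleolar enzyme, at 200.95, 163.0 and 154.3 TPM. Sirt2, mainly cytoplasmic, had 90.7, 87.2 and 97.1 TPM. Sirt6, a chromatin-bound enzyme, had 18.5, 19.3 and 21.7 TPM, and mitochondrial Sirt3 9.97, 8.33 and 12.3 TPM. Sirt1 (chr10:63319005-63381704, minus strand), the most studied sirtuin and one that deacetylates Foxp3, was lowest at 1.5, 2.76 and 2.33 TPM. No value of one sirtuin overlapped the next, so the order Sirt7, Sirt2, Sirt6, Sirt3, Sirt1 was the same in every library. In the second table Sirt7 was the highest of all 38 genes per base, with 1582, 1402 and 1292 counts, and Sirt1 was next to last with 25, 33 and 20. Further sirtuins, both mitochondrial, lay in between, Sirt5 at 22.3 ± 2.51 TPM and Sirt4 at 17.1 ± 0.735 TPM.

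The 6 acetyltransferases covered a narrower range, from 11.5 to 45.6 TPM. Kat5 (Tip60), the catalytic subunit of the NuA4 complex, had 43.2, 42.1 and 51.6 TPM. Kat2a (Gcn5), the acetyltransferase of SAGA, had 41.9, 35.7 and 29.1 TPM. Kat6a (Moz) at 25, 29.4 and 25.3 TPM and Ep300 at 24.6, 27.6 and 27.1 TPM overlapped. Crebbp, the paralog of Ep300 and like it a coactivator at enhancers, stood at 17.0, 21.7 and 16.7 TPM, below all values of Ep300. Kat2b (Pcaf) had 10.3, 12.8 and 11.3 TPM.

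Kat2a exceeded its paralog Kat2b by 1.62 ± 0.35 on the log2 scale, and by 2.06 ± 0.36 in the second table. Crebbp lay below Ep300 by -0.52 ± 0.17 in TPM and -1.18 ± 0.23 in the second table, lower in all 3 libraries each time. Counting transcripts annotated as coding alone narrowed that gap to -0.21. The coding sequences of Kat2a and Kat2b were 71.8% identical and those of Crebbp and Ep300 71.1%, in both cases with 0 common 50-base stretches. Kat2b shared 7.28% of its stretches with its processed pseudogene Kat2b-ps, which was at 0.04, 0.04 and 0 TPM.

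In PRC2 the catalytic subunit listed highest was Ezh1 (chr11:101191115-101226463, minus strand), with 76.8, 78.9 and 91.9 TPM. Ezh2 (chr6:47530139-47595341, minus strand), the more active methyltransferase and the one tied to dividing cells, had 47.4, 34.2 and 37.8 TPM. All values of Ezh1 lay above those of Ezh2. Eed, which binds the finished mark, had 49.7, 49.9 and 59.8 TPM. Suz12, the scaffold that holds the complex together, was lowest at 6.68, 6.62 and 6.85 TPM, below Eed and both Ezh genes in every library.

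The gap between Ezh2 and Ezh1 was -1.06 ± 0.32 on the log2 scale in TPM and -0.24 ± 0.28 in the second table, where Ezh2 was the higher of the pair in replicate 1 and the lower in the other libraries. The second table held 74.7% as many counts as the larger one for Ezh2 and 42.3% for Ezh1, although under 2% of the 50-base stretches of either gene occur elsewhere and the pair share none with each other. Over coding transcripts alone the gap widened to -1.51. On the wider list of PRC2 partners 5 of 6 matched genes were detected, with Phf1 (101.1 ± 3.62 TPM) and Mtf2 (85.4 ± 1.39 TPM) highest and Epop (0.597 ± 0.331 TPM) lowest. Rbbp4, the histone chaperone that PRC2 shares with the NuRD complex, was at 314.4 ± 10.6 TPM.

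Yy1, a DNA-binding factor linked to Polycomb recruitment and to enhancer looping, had 4.22, 5.80 and 4.68 TPM. Its estimated counts were 342, 425 and 290 but only 73, 82 and 61 in the second table, 20.4%, although none of its 50-base stretches occurs in another gene.

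Of the methyl writers and erasers, Kmt2a (Mll1), which writes the methyl mark of active promoters, had 28.8, 24.8 and 25.9 TPM. Kmt2d (Mll4), its relative at enhancers, had 16.2, 20.1 and 18.2 TPM, all below Kmt2a. Kdm1a (Lsd1), a demethylase of the CoREST corepressor, was at 5.38, 5.88 and 5.01 TPM. Kdm6b (Jmjd3), which erases the PRC2 mark, was at 3.09, 3.15 and 2.50 TPM. Kmt2a exceeded Kmt2d by 0.55 ± 0.27 on the log2 scale in TPM, and by 0.07 ± 0.33 in the second table, a difference smaller than its SD.

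Among the groups of this list the 5 chosen BAF and PBAF genes had the highest median, 55.5 ± 3.14 TPM, beside 51.3 ± 3.57 TPM for the 4 class I deacetylases. The 23 further subunits of these complexes, on a wider list, had a median of 14.0 ± 2.85 TPM. The high median thus holds for the chosen subunits and not for BAF and PBAF as a class. Smarcb1 (chr10:75896769-75921617, minus strand), a core subunit and tumour suppressor, had 105.3, 98.0 and 102.2 TPM. Brd9, the bromodomain subunit of the non-canonical BAF complex and a known regulator of Foxp3 binding, had 54.7, 57.7 and 59.9 TPM. Smarca4 (Brg1), the ATPase motor, had 57.2, 52.9 and 59.0 TPM, which overlapped with Brd9. Pbrm1, which defines PBAF and is known to oppose Brd9 in regulatory T cells, had 43.9, 33.2 and 31.8 TPM, below Brd9 in every library. Arid1a, the DNA-binding subunit of canonical BAF, had 22.3, 26.8 and 24.1 TPM.

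Smarca4 stood above the alternative motor Smarca2 (36.8, 36.7 and 34.3 TPM) by 0.65 ± 0.13 on the log2 scale and by 0.61 ± 0.11 in the second table, in all 3 libraries. Over coding transcripts alone the gap was 1.29. Of the other remodellers, Chd4, the motor of the NuRD complex, had 61.0, 66.9 and 60.6 TPM and ranked 3 of 38 in the second table. Bptf, the reader subunit of NURF, had 13.5, 16.0 and 17.2 TPM.

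**Figure D2:**
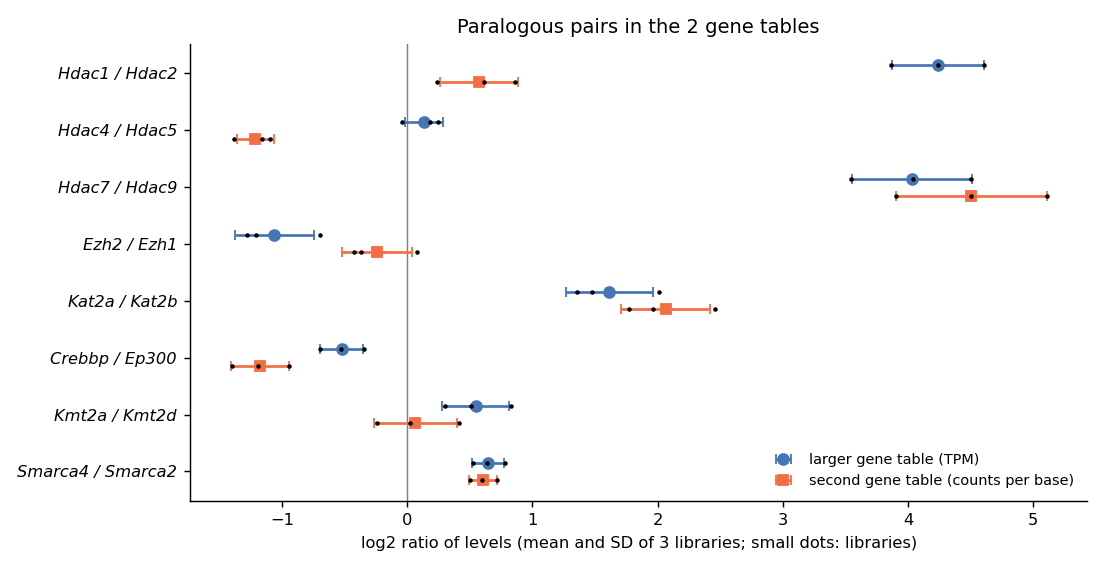
Log2 ratio of levels within 8 pairs of related genes, from TPM of the larger gene table (circles) and from counts per base of the second table (squares). Symbols are means with the SD of 3 libraries and small dots are libraries. Hdac1 over Hdac2 moves from 4.24 to 0.57 and Hdac4 over Hdac5 from 0.13 to -1.21 between tables, while Smarca4 over Smarca2 stays at 0.65 and 0.61.

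The 2 gene tables can be set side by side for all 38 genes. Counts in the second table, as a percentage of estimated counts in the larger one, ran from 5.87% for Hdac1 to 87.2% for Hdac5. The tables are separate counts, so this percentage can exceed 100, as it did for some other genes. Of the 38 genes, 13 had no 50-base stretch in common with another gene and 7 had 5% or more: Hdac1 (35.5% over all its transcripts), Hdac4 (21.6%), Hdac11 (15.3%), Sirt3 (10.6%), Kat5 (9.83%), Kat2b (7.28%) and Eed (5.82%). Hdac1 and Kat2b shared with processed pseudogenes. The other 5 shared mostly with exons that overlap them on the opposite strand: Gm26720 for Hdac4, Gm44002 for Hdac11, Ric8a and Psmd13 for Sirt3, Rnaseh2c for Kat5 and E230029C05Rik for Eed. Over the 11596 protein-coding genes the median of this percentage was 51.8% in the 4130 genes with no shared stretch, 36.5% in the 719 genes with 20 to 40% shared and 14.99% in the 603 genes with 40% or more. Yy1 was at 20.4% with none shared, and Kat5 and Eed were at 76.1% and 74.5% with some.

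**Figure D3:**
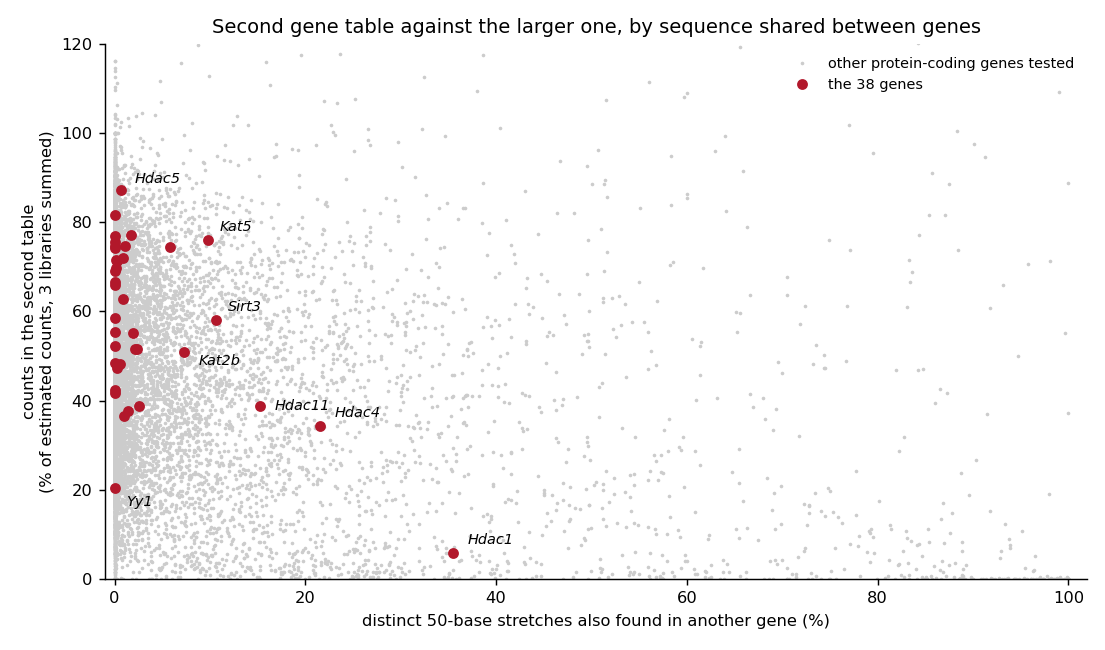
Counts in the second gene table as a percentage of estimated counts in the larger one, 3 libraries summed, against the percentage of distinct 50-base stretches that also occur in another gene. Red points are the 38 genes and grey points are 11558 other protein-coding genes, of which 81 above 120% are not drawn. Hdac1 lies at 35.5% shared sequence and a count percentage of 5.87%, and Yy1 at 20.4% with none shared.

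The annotated transcripts behind each gene were read from the transcript tables, where a gene's TPM is divided among its transcripts. Transcripts annotated as protein coding held a median of 80.8% of TPM over the 38 genes, beside 86.8% over the 10425 detected protein-coding genes. Transcripts annotated as retained intron, which keep an intron and are not taken to be translated, held a median of 11.5%, beside 3.26%. These medians depend on the unit: by estimated counts, which are not divided by transcript length, the coding share was 93.9% and the retained-intron share 4.39%. Shares by estimated counts were not computed for the detected protein-coding genes, so the gap to them is known in TPM alone. The most abundant transcript was coding in 36 of the 38 genes, and it was the same transcript in every library for 26. Neither count was computed over the detected protein-coding genes, so neither can be called a trait of the 38.

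At one end Smarca4 and Kmt2d had all of their TPM in coding transcripts, and Kmt2a 98.4 ± 1.79% and Smarcb1 95.3 ± 1.86%. Transcripts annotated as coding include short models, so a coding share is not a share of full-length forms. Kmt2a-206, with 173 codons against 3963 in Kmt2a-201, held 27.7 ± 4.13% of the TPM of Kmt2a. Eed-205, with 118 codons against 441 in Eed-201, held 29.6 ± 0.696% of that of Eed. At the other end Sirt1 had 17.4 ± 8.24%, Hdac10 35.5 ± 1.53% and Sirt3 44.9 ± 21.8%. The leading transcript of Sirt1 was Sirt1-205, annotated as a target of nonsense-mediated decay, with 58.7, 44.0 and 48.9% in replicates 1, 2 and 3. The longest coding form of Sirt1, Sirt1-203 with 737 codons, was listed at 0 in every library. Sirt1 rests on 58, 93 and 62 counts, so these shares are imprecise. Hdac10 rests on more, 1469, 1784 and 1522 counts, and its retained-intron share was 43.8 ± 2.90%. Brd9 (43.1 ± 3.77%), Eed and Hdac5 (33.8 ± 3.92%) followed among the 9 genes with 25% or more in retained-intron transcripts. The share of all detected protein-coding genes above that mark was not computed. Hdac10 (53.7%) and Brd9 (44.5%) kept shares of that size by estimated counts, whereas that of Hdac5 was 12.2%.

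**Figure D4:**
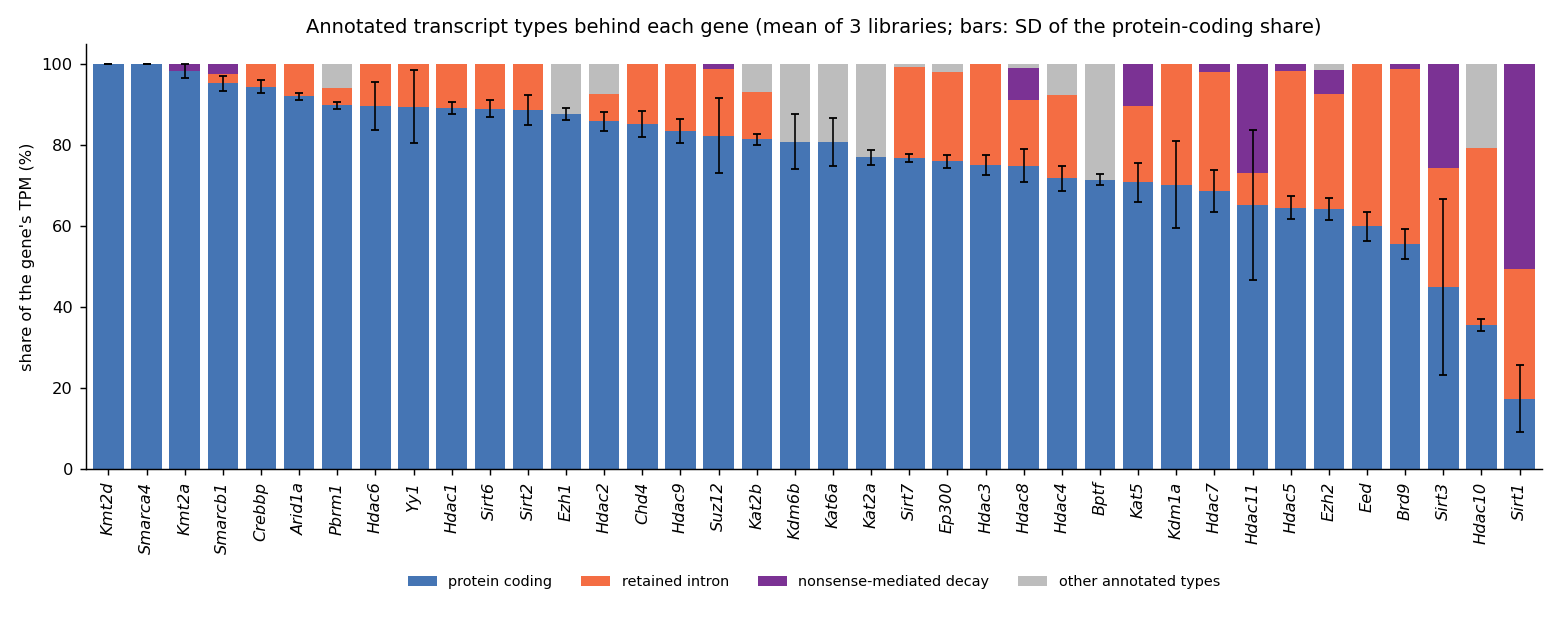
Share of each gene's TPM in annotated transcript types, as the mean of 3 libraries, with genes ordered by their protein-coding share. Error bars are the SD of that share over 3 libraries. Kmt2d and Smarca4 stand at 100% coding, and Sirt3, Hdac10 and Sirt1 below 50%.

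For Hdac9 the leading transcript was Hdac9-201, with 44.5, 45.6 and 66.8% of TPM. It encodes 588 codons, whereas the longest annotated form, Hdac9-204, encodes 1067 and was listed at 0.973, 0 and 0%. The catalytic domain of class IIa deacetylases lies in the C-terminal part of the protein. Hdac9 had 188, 236 and 112 counts in all, so a share near 0 says only that few reads were assigned to the long form at this depth.

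Several genes had 2 coding forms that differ by a short in-frame stretch, which changes the protein without ending it. For Smarcb1 the form without 9 codons, Smarcb1-202, led with 55.1, 55.2 and 63.9% of TPM, against 41.8, 38.1 and 31.8% for Smarcb1-201. These listed shares did not overlap. The deposited credibility bounds of the 2 forms did overlap in replicate 1 (43.8 to 60.9 TPM against 30.6 to 46.9 TPM). They also did in replicate 2 (40.3 to 55.8 TPM against 26.5 to 41.0 TPM), but not in replicate 3. Smarca4-204 held 82.3, 85.7 and 78.8%, while Smarca4-202, longer by 4 codons in 2 places, held 16.7, 14.1 and 20.4%. Ezh2-201, with 126 bases that Ezh2-202 lacks, held 27.7, 40.02 and 43.4%, and Ezh2-202 held 27.8, 11.7 and 10.8%. The model of Ezh2-202 is 2115 bases long against 2787 for Ezh2-201, so the pair differ outside this stretch as well. The transcript models of the other pairs also differ outside their coding stretch: Smarca4-202 is 6376 bases long and Smarca4-204 5405, Smarcb1-201 1660 and Smarcb1-202 1622, and Kdm1a-202 3028 and Kdm1a-203 3008. The stretches, read from the GENCODE M21 transcript sequences, are given because they set the coding sequences of the forms apart (for Smarca4 the longer of 2). Capitals mark the bases that only the longer form has, at the mm10 positions given. Lower-case flanks are the 15 neighbouring coding bases of the spliced transcript.
Smarcb1-201, chr10:75916773-75916799, minus strand: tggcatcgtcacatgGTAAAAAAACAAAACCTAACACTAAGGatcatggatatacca
Smarca4-202, chr9:21686013-21686021, plus strand: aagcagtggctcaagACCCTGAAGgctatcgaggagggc
Ezh2-201, chr6:47541845-47541970, minus strand: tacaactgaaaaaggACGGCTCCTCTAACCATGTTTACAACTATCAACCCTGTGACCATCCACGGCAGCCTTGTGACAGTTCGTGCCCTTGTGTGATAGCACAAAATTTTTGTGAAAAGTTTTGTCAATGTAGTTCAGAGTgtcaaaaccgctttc
Kdm1a-202, chr4:136582040-136582099, minus strand: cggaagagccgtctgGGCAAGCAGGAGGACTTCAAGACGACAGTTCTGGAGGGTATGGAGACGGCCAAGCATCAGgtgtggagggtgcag
Suz12-201, chr11:79999057-79999125, plus strand: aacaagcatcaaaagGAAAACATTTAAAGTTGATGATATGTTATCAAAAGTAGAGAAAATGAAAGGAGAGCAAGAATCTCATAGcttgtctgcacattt

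Not all such splits were stable. Suz12-201 held 21.3, 83.4 and 6.28% of TPM in replicates 1, 2 and 3, and Suz12-206, which lacks 69 bases, 69.6, 0.151 and 66.3%. The gene as a whole varied little, from 6.62 to 6.85 TPM, so the listed shares moved between forms while the level of the gene did not. Kdm1a-202 held 20.6, 40.4 and 15.4% and Kdm1a-203, without 60 bases, 61.5, 27.3 and 45.6%. Ezh1-202 and Ezh1-203 traded places in the same manner, with 25.8, 29.5 and 61.7% against 60.9, 54.0 and 23.0%. For Suz12-206 the deposited 95% credibility bounds ran from 1.23 to 5.55 TPM in replicate 1 and from 3.26e-05 to 3.69 TPM in replicate 2, so they overlapped across the libraries. For Ezh1-202 the bounds ran from 11.4 to 49.6, 11.8 to 52.8 and 14.1 to 50.2 TPM in replicates 1, 2 and 3. A difference between libraries in the form used is thus not shown for Suz12 or Ezh1.

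The libraries were next compared gene by gene with a chi-square test of counts against library totals, over the 14641 genes whose counts summed to at least 30. At an adjusted p under 0.05, 28 of the 38 genes differed between libraries, beside 44.9% of all genes tested. The share called was larger among genes with more counts: it was 55.4% among the 9956 genes that averaged at least 100 counts, and 69.1% among the 3799 genes at or above the median count of the 38. The median ratio of the highest to the lowest library was 1.2 over the 38 genes and 1.15 over the 9956. By counts of the smaller gene table, 17 of the 37 that could be tested differed, beside 23.2% of 10855. Without replicate 1 the test called 17 of 38, beside 30.3% of all genes tested. Without replicate 2 it called 18 beside 27.7%, of which 17 were among the 28, and without replicate 3 it called 21 beside 34%.

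Calls of 5 genes held under all 9 alternatives: Sirt7, Hdac7, Kat2a, Kmt2d and Chd4. Sirt7 (ratio 1.29, adjusted p = 1.97e-26), Hdac7 (1.30, 8.86e-20) and Kat2a (1.44, 8.06e-18) were highest in replicate 1 and lowest in replicate 3. Kmt2d (1.30, 3.01e-34) and Chd4 (1.21, 1.32e-18) were highest in replicate 2 and lowest in replicate 1. The other 23 calls were lost under at least 1 alternative. How often calls held under every alternative was not computed over all genes tested. Neither count can therefore be called high or low for genes of like count. The largest ratio, 1.84 for Hdac9 with 188, 236 and 112 counts (adjusted p = 3.60e-06), came to 1.23 without replicate 3 (0.0868). Hdac2 had a ratio of 1.61 (adjusted p = 3.31e-09), and without replicate 1 it was 1.21 (0.0554). Ezh2 had 1.37 (9.43e-11), and 1.12 without replicate 1 (0.0796). Sirt1 had 1.57 (0.0457) and was not called in the second table (0.468), with a count minimum of 1 (0.0885), or without replicate 1 (0.213) or replicate 2 (0.507).

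Hdac2 and Ezh2 were highest in replicate 1. Ezh2 was lowest in replicate 2, with 53.2, 38.7 and 43.2 CPM (counts scaled to the library total, with no correction for length), and Hdac2 in replicate 3, with 23.7, 17.8 and 14.8 CPM. Of the 20 genes on the proliferation list 18 were highest in replicate 1 and all 20 were lowest in replicate 2, with summed levels of 1264, 969 and 1143 TPM. Mki67, a marker of cycling cells, had 77.9, 58.3 and 71.4 CPM. Whether the proliferation genes have a part in the values of Hdac2 and Ezh2 was not tested.

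The library with the highest value varied among the genes. By estimated counts, replicates 1, 2 and 3 were the highest for 11, 14 and 13 of the 38, beside 34.2, 33 and 32.9% of all genes tested, and the lowest for 15, 12 and 11, beside 32.1, 35.3 and 32.5%. In the second table replicate 2 was the highest for more of them: replicates 1, 2 and 3 led for 9, 20 and 9 of the 38, beside 34.4, 32.6 and 33% of the 10855 genes tested there. Among the 28 genes that differed, the same library was highest in both tables for 26. The tables count the same libraries, and this share was not computed over all genes called, so it is no independent check. For Hdac1 the highest and lowest libraries traded places, with 69.6, 72.3 and 69.3 CPM in the second table, and for Hdac4 the highest changed from replicate 3 to replicate 1. The order of the libraries varied with transcript length. All 6 genes with an effective length of 7000 bases or more, Kat6a, Ep300, Crebbp, Kmt2a, Kmt2d and Arid1a, were highest in replicate 2 and lowest in replicate 1 in CPM. Kmt2a had 174.7, 196.3 and 189.1 CPM, although its TPM was highest in replicate 1. Of 13 genes between 1000 and 2000 bases, 9 were highest in replicate 3, 4 in replicate 1 and 0 in replicate 2. Among 2858 protein-coding genes of that length averaging at least 100 counts, replicates 1, 2 and 3 were highest for 34.6, 28.1 and 37.3%. The 6 genes of 7000 bases or more were also highest in replicate 2 under TMM and DESeq2 scaling and in the second table. The TMM factors were 1.005, 0.993 and 1.002 in replicates 1, 2 and 3, so that scaling could hardly reorder the libraries. The second table counts the same libraries, so none of these is an independent check. The length of 7000 bases was chosen after these values were seen.

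The pattern was not particular to chromatin genes: among 141 protein-coding genes of 7000 bases or more and averaging at least 100 counts, 63.1% were highest in replicate 2. Other lists moved with replicate 2 as well. All 5 heat shock genes were highest there, with summed levels of 2058, 3134 and 2288 TPM, as were all 6 erythroid genes, with 910, 1272 and 1148 TPM. Hspa1b, an inducible heat shock gene, had 9.85, 79.7 and 7.97 CPM. The part of transcript length, heat shock RNA or erythroid RNA in the values of the 38 genes was not tested.

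**Figure D5:**
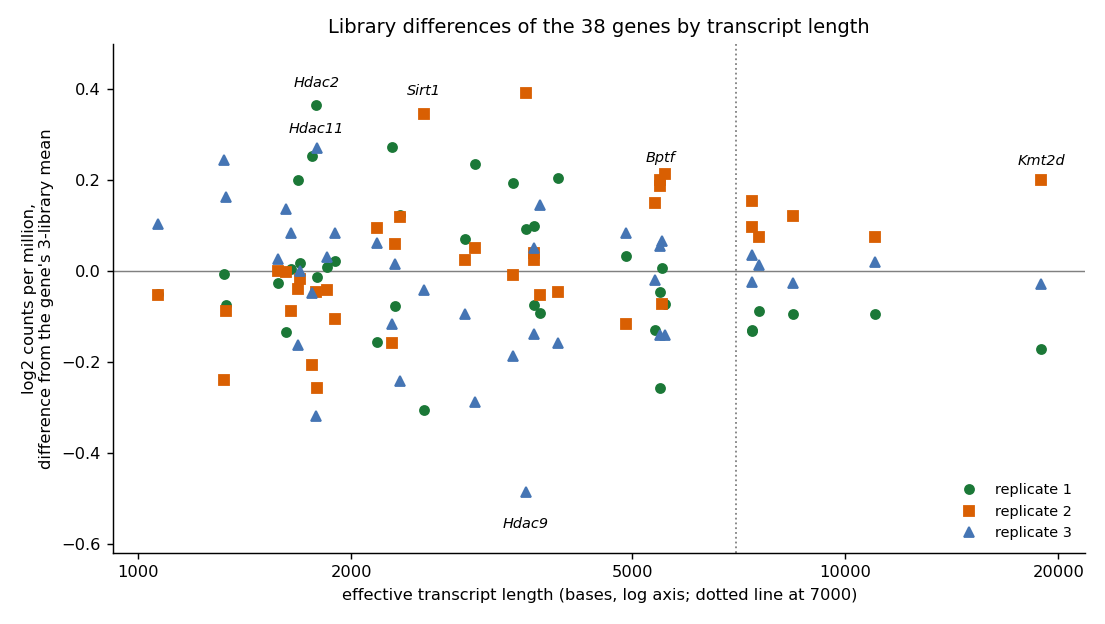
Difference of each library's log2 CPM from the mean of the 3 libraries, for the 38 genes, against effective transcript length (log axis). Right of the dotted line at 7000 bases all 6 genes have replicate 2 (squares) on top and replicate 1 (circles) at the bottom. Hdac9, Sirt1 and Hdac2 spread most among the labelled genes, with ratios of 1.84, 1.57 and 1.61.

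The 38 genes are a part of the machinery, and further lists of it were likewise chosen with earlier results known. On 11 wider lists, 145 of 159 matched genes were detected, with a median of 26.6 ± 0.985 TPM, and 87 of 152 tested differed between libraries, beside the 44.9% of all genes tested and the 55.4% of those averaging at least 100 counts. The counts of differing genes in single lists are to be read against the same shares. All 10 further acetyltransferases were detected, with Ncoa3 (157.8 ± 2.62 TPM) and Naa60 (114.3 ± 4.61 TPM) highest and Ncoa1 (3.80 ± 0.615 TPM) lowest, and 5 differed. The corepressor partners of class I deacetylases had 13 of 15 detected and 9 of 13 different, led by Sap18 (196.2 ± 15.4 TPM) and Sin3b (173.5 ± 5.24 TPM), with Rcor2 at 0.0967 ± 0.134 TPM. In NuRD, where Chd4 is the motor, 11 of 12 were detected and 7 of 11 differed. Rbbp7 (267.6 ± 19.3 TPM) came second to Rbbp4, and Chd5, a neuronal relative of Chd4, was at 0.05 ± 0.0265 TPM.

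PRC1, the partner complex of PRC2, had all 19 genes detected and 12 different. Its catalytic subunit Rnf2 was highest at 73.2 ± 5.23 TPM, then the chromodomain subunit Cbx6 at 50.7 ± 3.11 TPM, and Pcgf2 was lowest at 1.35 ± 0.207 TPM. Among further methyltransferases and their partners 23 of 25 were detected and 16 differed, with Kmt2e (189.0 ± 4.60 TPM) and Dpy30 (99.6 ± 3.45 TPM) highest and Suv39h2 (0.4 ± 0.01 TPM) lowest. Of 21 further demethylases 20 were detected and 10 differed: Kdm5a (95.04 ± 3.95 TPM) and Kdm3a (71.9 ± 0.693 TPM) led, and Riox1 (1.48 ± 0.490 TPM) was lowest.

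Further BAF and PBAF subunits were detected for 19 of 23 genes and differed for 11 of 20. Smarce1 (179.2 ± 10.9 TPM) and Dpf2 (164.6 ± 5.78 TPM) were highest, and Actl6b, a subunit of the neuronal form, was listed at 0 in every library. Among other remodellers 19 of 21 were detected and 10 of 20 differed, with Chd2 (204.2 ± 6.91 TPM) and Chd9 (155.5 ± 6.72 TPM) highest and Smarca1 listed at 0. The bromodomain readers had 4 of 5 detected and 3 different, with Brd2 (115.1 ± 19.9 TPM) highest and Brdt, a testis gene, at 0.533 ± 0.168 TPM.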

How the data were processed

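The authors deposited tables of genes and of transcripts for each library, on mm10 with GENCODE M21 annotation, per a deposited list of each library's files. Their columns hold estimated counts (expected counts, not whole), TPM and FPKM as deposited, with credibility bounds. A second deposited gene table has whole-number counts of 22457 genes from GENCODE M4. For aligner, quantifier and strand setting, the answer is not given in the sources used here. Since strand use is not stated, reads of a gene and an overlapping antisense gene cannot be told apart.

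Rows that name no gene (0.189 to 0.271% of estimated counts) were left out. Levels are the deposited TPM, given with an SD over 3 libraries. Detection meant 1 TPM in every library. Log2 ratios used a pseudocount of 0.1 TPM, so a ratio is on the log2(TPM + 0.1) scale. To compare libraries, rounded estimated counts were set against library totals in a chi-square test (Pearson, 2 degrees of freedom). It ran on the 14641 genes whose counts summed to at least 30, and p-values were adjusted over them (Benjamini-Hochberg). This test asks whether libraries differ by more than counting noise, and, as no molecular identifiers are recorded, reads may repeat the same molecule. The test was tried on counts simulated with counting noise alone and some genes raised. That setting cannot show how other variation or repeated reads affect the calls. A gene's shared sequence is the percentage of distinct 50-base stretches of its M21 transcripts also found in another gene. A match on either strand counted. Second-table levels were divided by the effective length of the larger table.

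The members and all lists were chosen with earlier results of these data known. Named genes are the 38 members, the 2 highest and the lowest of each wider list by mean TPM, transcripts with a mean share of 5% or more, Smarca2, Mki67 and Hspa1b. Of these, 1 wider-list gene is not reported here. Outside the rule, Rbbp4 beside PRC2, Gm10093, Gm26720, Kat2b-ps, the neighbours sharing sequence, marker genes and transcripts listed near 0 were named after their values were seen. The symbols of 2 wider-list genes had no match. Alternatives were other thresholds and pseudocounts, FPKM, coding transcripts only, edgeR's TMM and DESeq2 size factors, other count minimums, a deviance statistic, the second table, shares of estimated counts and leaving out each library. Analyses ran in Python 3.11.15 (scipy 1.17.1, pandas 2.3.3, numpy 2.4.6, with matplotlib 3.10.9 for figures) and R 4.3.3 (DESeq2 1.42.0 and edgeR 4.0.16).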

Additional observations from a re-analysis of the deposited data

How the results depend on the processing

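In the second table the library difference of Hdac1 reversed its order (ratio 1.04, adjusted p = 0.876), and Hdac4 over Hdac5, which lay within its SD of 0, changed sign. The second gene table moved paralog log2 ratios most: to 0.57 for Hdac1 over Hdac2, -1.21 for Hdac4 over Hdac5, -0.24 for Ezh2 over Ezh1, 2.06 for Kat2a over Kat2b, -1.18 for Crebbp over Ep300 and 0.066 for Kmt2a over Kmt2d. Coding transcripts alone gave -1.51 for Ezh2 over Ezh1, -0.21 for Crebbp over Ep300 and 1.29 for Smarca4 over Smarca2. The second table called 17 members different between libraries, beside 23.2% of all genes. Without 1 library the count was 17 to 21, beside 27.7 to 34%. TMM, DESeq2 scaling and the deviance gave 27, 27 and 28, beside 45, 44.7 and 45%. Count minimums of 300 and 1 gave 28 and 26, beside 56.9 and 20.1%. Members detected were 33 to 38 of 38 over other thresholds, FPKM and leaving out each library. The median level was 15.8 in FPKM, another unit, and 23.3 TPM as a geometric mean. The median coding share was 93.9% by estimated counts, and 77.8 to 80.6% without 1 library. The causes were not tested. Depth limits Hdac11, Sirt1 and Hdac9, whose shares and library differences rest on few counts. No paired analysis was possible because there is 1 group.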
